A study of Oryza sativa with 4 samples.

Results

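The SAPK genes of rice encode the stress-activated SnRK2 protein kinases that pass on the abscisic acid signal. They were taken here as every gene whose symbol or synonym, without any Os prefix, is SAPK followed by a number. All 10 genes, SAPK1 to SAPK10, were found among the 17905 genes measured, each on a single probe set, that is a group of probes read out as 1 signal. Affymetrix rice arrays were used to measure transcripts in leaves of the cultivar Senia at the second vegetative stage. The 2 samples of the treated group came from plants sealed in bags with CO2 raised to 30% and kept there for 6 h at 27 °C in the dark. The 2 control samples came from plants held for the same time in normal atmosphere, labelled 0.04% CO2, also in the dark at 27 °C. Each sample is a biological replicate of the leaves of 10 plants. The labels do not say whether control plants were bagged, so enclosure and CO2 cannot be told apart.

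Abscisic acid is the hormone by which plants close their stomata and adjust to drought and salt. When the hormone binds its PYL receptors, these hold back clade A protein phosphatases 2C, which otherwise keep SnRK2 kinases inactive. The released kinases phosphorylate bZIP transcription factors such as TRAB1, which then turn on genes for dehydrins and other LEA proteins, and also ion channels of guard cells. In rice, SAPK1 to SAPK10 fall into subclass I (SAPK4, SAPK5, SAPK6 and SAPK7), subclass II (SAPK1, SAPK2 and SAPK3) and subclass III (SAPK8, SAPK9 and SAPK10). Every member is known to be activated by osmotic stress and those of subclass III also by abscisic acid itself. This activation is largely a matter of phosphorylation, which transcript signals do not show.

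The values are log2 signals, and the median signal of a sample was between 3.85 and 3.92. The correlation over all probe sets, which are not independent replicates, was 0.989 between the CO2 samples and 0.993 between the controls, and lay between 0.951 and 0.968 for samples of different groups. As a check of the tissue, rbcS, for the small Rubisco subunit, read 13.63 and 13.64 under 30% CO2, against 13.65 and 13.64 in controls, on a set that may cross-hybridise. That signal is near 13.88, the highest value of the series. RBCS1, also named for that subunit, read 2.74 and 2.97 under CO2, against 3.19 and 3.30 in controls. Other leaf genes changed, as given below. The number of arrays limits the precision, and the table gives no detection calls. In whole leaves, fewer cells of a type and less RNA per cell cannot be told apart.

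Under 30% CO2 the SAPK genes did not move together. SAPK9 fell 5.95-fold and SAPK6 rose 1.76-fold, and these 2 of the 10 genes passed an adjusted p of 0.05 in limma's test over all 57194 probe sets. That share is close to the 22.4% of the 17905 genes that passed (8.93% higher and 13.5% lower). At an unadjusted p under 0.05 in limma's test 5 of the 10 were higher and 3 lower, beside 43.9% of all genes in either direction. Nothing is read from these counts about the family. With p-values adjusted over the 17905 genes instead, SAPK2 and SAPK8 passed as well, giving 3 higher and 1 lower, where 31.2% of all genes passed, 12.4% higher and 18.8% lower. The median log2 fold change of the 10 was 0.42, beside -0.08 over all genes, and their median size of change was 0.47, beside 0.39 over all genes. All log2 fold changes are CO2 minus control.

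**Figure D1:**
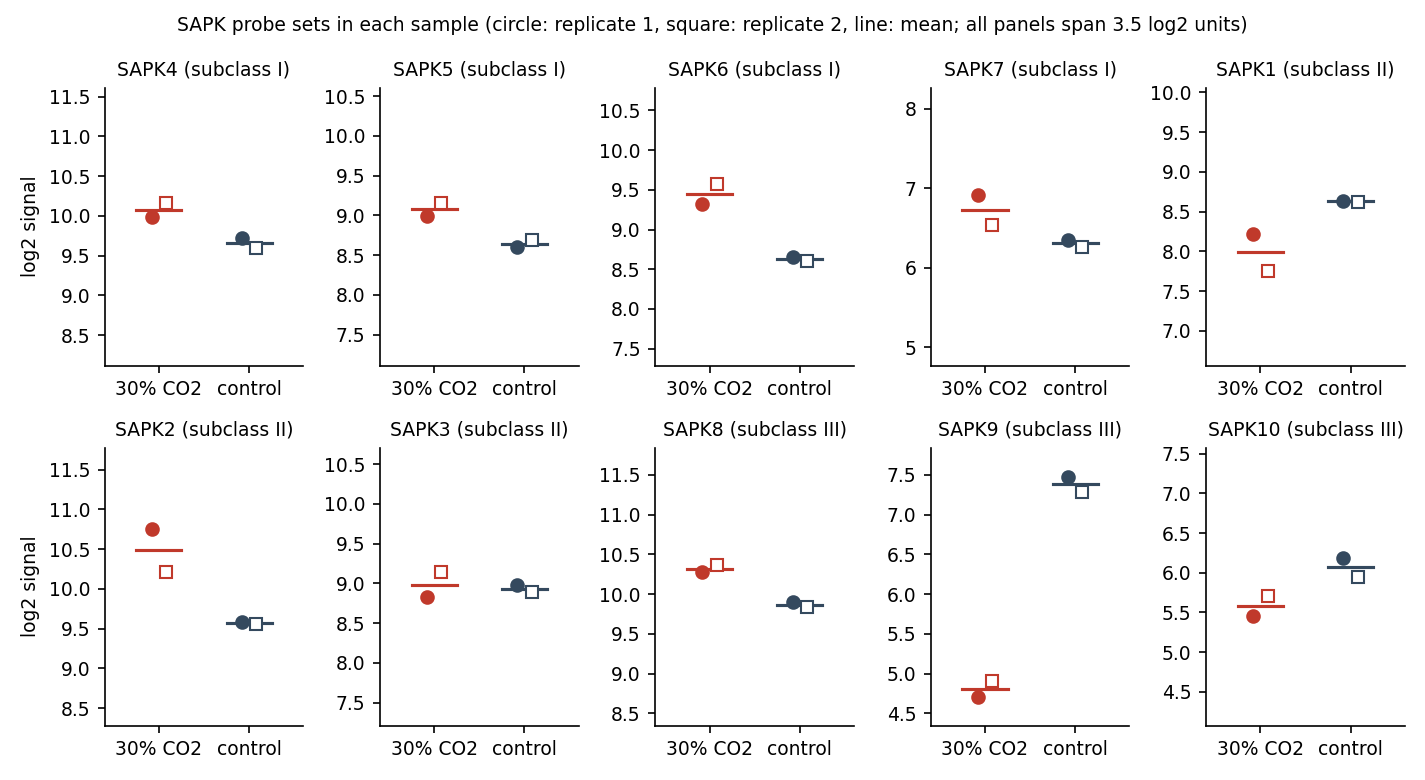
Log2 signal (y axis, 3.5 log2 units in every panel) of each SAPK probe set in the 2 samples under 30% CO2 (red) and the 2 controls (dark blue), with replicate 1 as filled circles, replicate 2 as open squares and the group mean as a line. SAPK9 shows the widest gap between groups, SAPK3 is the one gene whose groups overlap, and 6 genes lie above and 3 below their controls.

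In 9 of the 10 genes both CO2 samples lay on the same side of both controls, 6 of them above and 3 below. Such separation was common on these arrays and held for 67.5% of all genes, 27.7% above and 39.8% below. The gap between the nearest samples of the groups was 2.38 log2 units for SAPK9, 0.67 for SAPK6 and 0.62 for SAPK2. Among the other separated genes it ranged from 0.19 (SAPK7) to 0.40 (SAPK1).

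SAPK9 (LOC4352660), a subclass III kinase known as a positive regulator of drought tolerance in rice, had the one large change of the family. Its log2 signal was 4.71 and 4.91 under 30% CO2, against 7.48 and 7.29 in controls. Both CO2 samples were far below both controls, and the replicates of each group lay close to each other. The means were 4.81 ± 0.14 under CO2 and 7.38 ± 0.14 in controls (SD, n = 2 each), a log2 fold change of -2.57 ± 0.15 (SE; 95% interval -2.95 to -2.20; adjusted p = 0.00427, limma). Of all 17905 genes 124, or 0.693%, had a fold change at or below that of SAPK9. The probe set carries the suffix for sets that can bind several transcripts (_s_at), so the signal cannot be assigned to SAPK9 alone. Without such sets no SAPK gene was lower at the threshold, but SAPK9 has no other set, so that fit does not test it. Its CO2 mean stood at the 60.7th percentile of all probe sets and its control mean at the 80.6th, and whether the CO2 signal was above background is not known.

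The other members of subclass III moved less. SAPK8 (LOC4334218), which in rice can phosphorylate the guard cell anion channel SLAC1, read 10.27 and 10.37 under 30% CO2, against 9.90 and 9.84 in controls. Its CO2 samples were both higher, with a log2 fold change of 0.45 ± 0.12 (95% interval 0.14 to 0.77), but the test over all probe sets was not passed (adjusted p = 0.0875, limma). When adjusted over genes alone its limma p was 0.0465. SAPK10 (LOC4333435), known to phosphorylate TRAB1, read 5.46 and 5.71 under CO2, against 6.18 and 5.95 in controls. Both of its CO2 samples lay below both controls by a small margin, at -0.48 ± 0.16 (95% interval -0.90 to -0.07; adjusted p = 0.143, limma).

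Subclass I gave 4 log2 fold changes of one sign, of which only that of SAPK6 passed. SAPK6 (LOC4329630), which in rice can phosphorylate bZIP factors of the pathway, read 9.32 and 9.57 under 30% CO2, against 8.65 and 8.61 in controls. Both CO2 samples were above both controls, by 0.69 and 0.94 log2 units over the control mean. The log2 fold change was 0.81 ± 0.14 (95% interval 0.45 to 1.18; adjusted p = 0.0299, limma). The call was lost with the replicate block (limma adjusted p = 0.0938). Without any 1 of the 4 samples the log2 fold change stayed between 0.69 and 0.94. SAPK4 (LOC4324934), linked to salt tolerance in rice, read 9.98 and 10.16 under CO2, against 9.72 and 9.60 in controls. SAPK5 (LOC4337502) gave log2 signals of 8.99 and 9.16 in CO2 samples, against 8.60 and 8.69 in controls. For SAPK7 (LOC4335877), on a probe set whose suffix marks several transcripts of 1 gene, the signals were 6.92 and 6.54 under CO2, against 6.35 and 6.26 in controls. These last 3 genes were separated from their controls in the same direction and had close fold changes of 0.42, 0.43 and 0.43 on the log2 scale, with adjusted p = 0.135, 0.118 and 0.207 (limma). The 95% intervals were 0.07 to 0.77 for SAPK4, 0.09 to 0.77 for SAPK5 and -0.01 to 0.86 for SAPK7.

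Subclass II was split. SAPK2 (LOC4343944), which acts in abscisic acid responses and drought tolerance, read 10.76 and 10.21 under 30% CO2, against 9.59 and 9.56 in controls. Both CO2 samples were higher, but they differed from each other more than those of any other SAPK gene, lying 1.18 and 0.64 above the control mean. The log2 fold change was 0.91 ± 0.21 (95% interval 0.36 to 1.46), a 1.88-fold difference with adjusted p = 0.0617 over all probe sets and 0.0320 over genes (limma). SAPK1 (LOC4333017), a close relative of SAPK2, read 8.22 and 7.76 under CO2, against 8.64 and 8.63 in controls. Both of its CO2 samples lay below the controls, at -0.64 ± 0.19 (95% interval -1.13 to -0.15; adjusted p = 0.110, limma). SAPK3 (LOC4349411), also named REK, read 8.83 and 9.14 under CO2, against 8.97 and 8.90 in controls. The CO2 samples of SAPK3 spanned those of the controls, and its log2 fold change was 0.05 ± 0.16, with an interval of -0.35 to 0.45 (adjusted p = 0.896, limma).

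**Figure D2:**
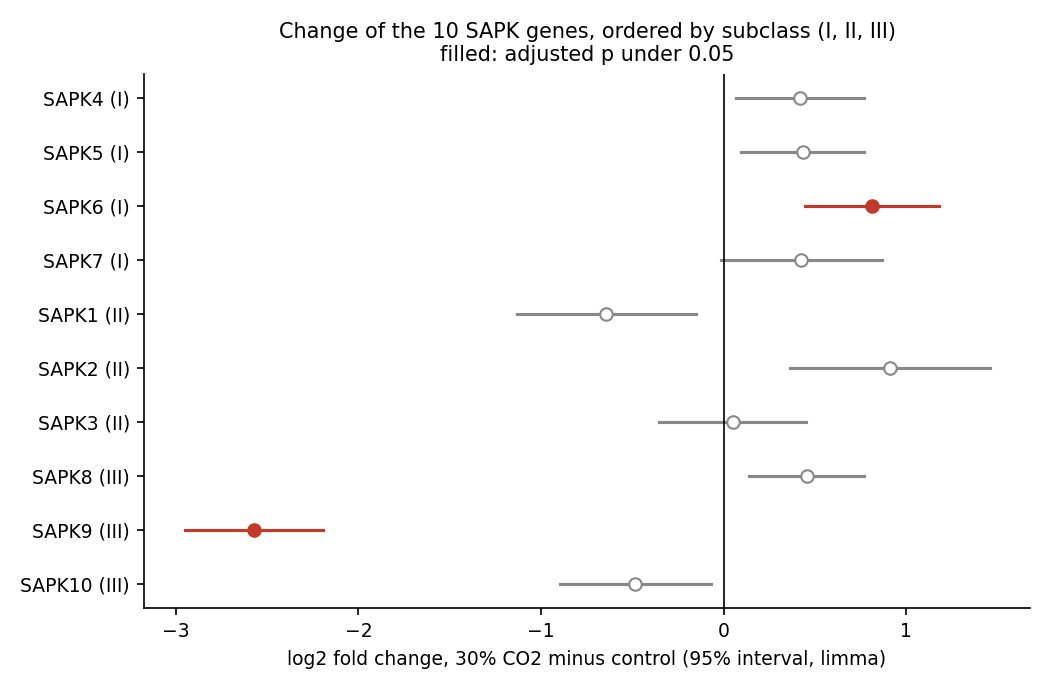
Log2 fold change (x axis, 30% CO2 minus control) of the 10 SAPK genes (y axis, ordered by subclass I, II and III) with 95% intervals from limma, filled where the adjusted p over all probe sets was under 0.05. SAPK9 at -2.57 and SAPK6 at 0.81 are filled, and the intervals of SAPK7 and SAPK3 include 0.

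Differences between relatives were looked at within arrays, as the shift of the log2 ratio of 2 members of a subclass between CO2 and control samples. There were 12 such pairs. The largest shifts were in subclass III, at 3.03 for SAPK8 over SAPK9 and -2.09 for SAPK9 over SAPK10. In subclass II the ratio of SAPK1 to SAPK2 shifted by -1.55. Between SAPK4, SAPK5 and SAPK7 the shifts lay between -0.01 and 0.01, as differences of group means. The ratios to SAPK7 were less alike on single arrays. That of SAPK4 was 3.06 and 3.62 under CO2, against 3.37 and 3.33 in controls. That of SAPK5 was 2.07 and 2.62 under CO2, against 2.25 and 2.43 in controls. With 2 samples a group the exact permutation test (two-sided) cannot go below 0.333, and the smallest p after adjustment over the 12 pairs was 0.444, so no pair could pass.

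Replicates differed more under CO2 than in controls for all 10 SAPK genes, which was so for 60.1% of all genes. These genes were read on the same arrays and are not independent cases. For SAPK9 (SD 0.141 against 0.137) and SAPK10 (0.181 against 0.164) the difference was small. The SD of the CO2 samples had a median of 0.18 over the SAPK genes (0.07 for SAPK8 to 0.39 for SAPK2), against 0.06 in controls (0.01 for SAPK1 to 0.16 for SAPK10). Over all genes the medians were 0.16 under CO2 and 0.12 in controls.

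**Figure D3:**
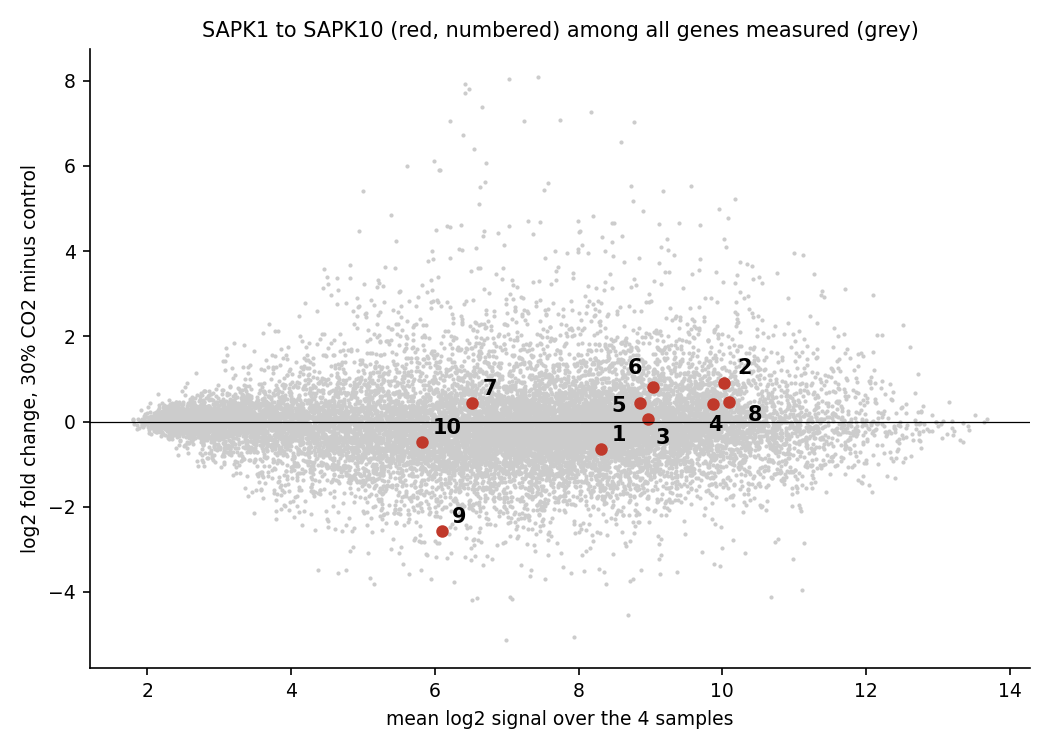
Log2 fold change (y axis, 30% CO2 minus control) against the mean log2 signal over the 4 samples (x axis) for the 17905 genes, each by its brightest probe set (grey), with SAPK1 to SAPK10 in red and numbered. The other SAPK genes lie inside the main cloud and SAPK9 lies near its lower edge.

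Leaving out 1 sample at a time kept the direction of every SAPK gene but SAPK3. Such a fit leaves 1 sample in a group, too few for its test to judge the call of a single gene. SAPK9 stayed between -2.67 and -2.47. Of the SAPK genes that did not pass, SAPK1 ran from -0.88 to -0.41 and SAPK7 from 0.24 to 0.61 over the same fits, the ends set by the CO2 samples.

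The rest of the pathway was read from the genes with a pathway name in the tables used, 23 measured genes in all. Of these 1 rose, 0 fell and 22 did not pass in limma's test (2 higher and 3 lower at an unadjusted p under 0.05). Over all 17905 genes 22.4% passed, 8.93% higher and 13.5% lower, and 43.9% had an unadjusted p under 0.05. The median log2 fold change of the 23 was -0.22. The gene that rose was ABA8OX1 (also CYP707A5), for the 8'-hydroxylase that breaks abscisic acid down, at 10.04 and 9.30 under 30% CO2, against 6.08 and 5.24 in controls. Both CO2 samples were far above both controls, a 16.2-fold difference (log2 fold change 4.01 ± 0.38, adjusted p = 0.00794, limma). It kept its direction without any 1 sample, at 3.59 to 4.44. Neither of the other 2 measured genes of synthesis and breakdown passed.

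Upstream of the kinases, the 1 receptor gene with a name, PYL11, gave 9.44 and 9.48 under CO2, against 9.71 and 9.89 in controls (-0.34 ± 0.13, adjusted p = 0.192, limma). Of the 7 measured clade A phosphatase genes 0 passed in limma's test (1 at an unadjusted p under 0.05). The pair with the smallest p pointed in opposite directions. PP2C51 read 5.22 and 4.20 under CO2, against 3.36 and 3.71 in controls, and PP2C30 read 5.64 and 4.02 under CO2, against 6.43 and 6.06 in controls (limma adjusted p = 0.126 and 0.195). Leaving out 1 sample at a time moved the log2 fold change of PP2C51 between 0.66 and 1.69 and that of PP2C30 between -2.22 and -0.60, and the mean of both PP2C51 probe sets gave 0.61.

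Downstream, 0 of 3 transcription factor genes passed in limma's test (1 at an unadjusted p under 0.05). TRAB1, a bZIP factor that the kinases phosphorylate, read 8.28 and 8.17 under CO2, against 8.51 and 8.64 in controls (-0.35 ± 0.13, adjusted p = 0.173, limma). ABF2 (also BZIP23) read 9.04 and 8.18 under CO2, against 8.29 and 7.82 in controls (adjusted p = 0.387, limma), with a log2 fold change of 0.56 that ran from 0.13 to 0.99 with 1 sample left out. No gene carried the name of a guard cell channel on the list, so guard cells were not followed.

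Among 9 genes for dehydrins, LEA proteins and other proteins responsive to abscisic acid, 0 passed in limma's test (1 at an unadjusted p under 0.05), and the CO2 samples stood well apart from each other. EM, a LEA gene of seeds, read 5.22 and 4.51 under CO2, against 7.54 and 5.74 in controls (-1.78 ± 0.63, adjusted p = 0.167, limma). The value moved with the control left out, at -0.88 without control replicate 1 and -2.68 without control replicate 2. Dhn1 (also LIP9), a dehydrin gene, read 10.47 and 9.35 under CO2, against 9.17 and 8.41 in controls (1.12 ± 0.45, adjusted p = 0.208, limma). That value is of the brightest of 3 probe sets, and the mean of the 3 gave 0.23, while leaving out 1 sample at a time gave 0.57 to 1.68. All 9 were higher in CO2 replicate 1 than in CO2 replicate 2, by a median of 1.11 and by up to 3.95 log2 units for RAB16B, which read 9.12 and 5.17 under CO2, against 8.38 and 7.65 in controls (named for its spread after its values were seen). The same 9 were also higher in control replicate 1 than in control replicate 2, by a median of 0.73. With the replicate block, which allows for such shared shifts, the SE was 0.33 for EM and 0.15 for Dhn1. Neither passed with it (limma adjusted p = 0.0977 and 0.0675). Of the 10 SAPK genes, 3 were higher in CO2 replicate 1 (SAPK1, SAPK2 and SAPK7), and the median difference was -0.17. In controls 9 of the 10 were higher in replicate 1, with a median difference of 0.07. Over all genes 40.8% were higher in CO2 replicate 1, and 9462 of the 17905 were higher in control replicate 1.

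**Figure D4:**
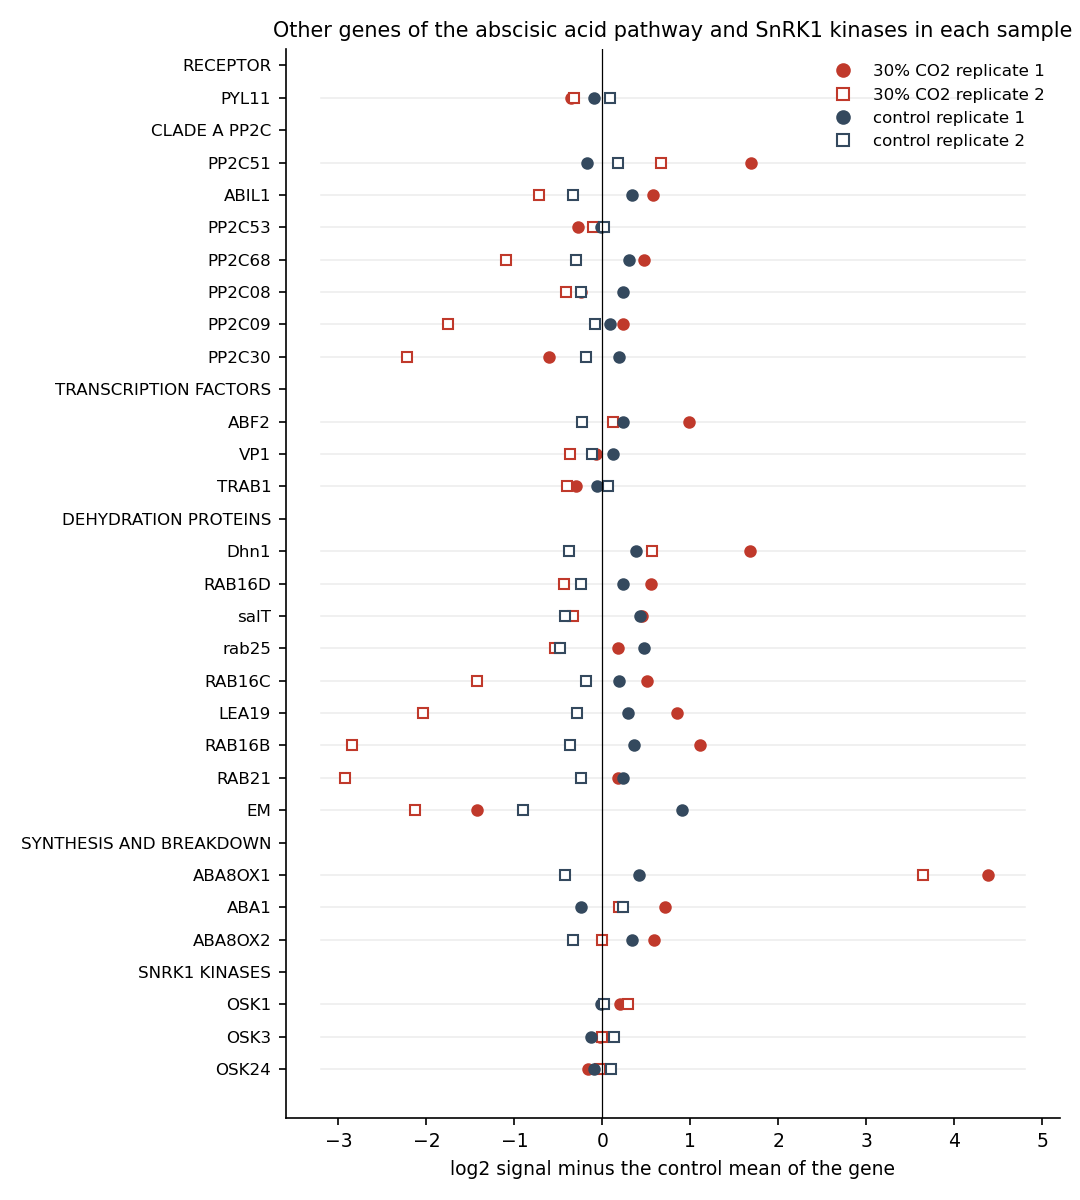
Log2 signal minus the gene's own control mean (x axis) for the other measured genes of the abscisic acid pathway and the SnRK1 kinases (y axis, grouped by role), with CO2 samples in red and controls in dark blue, replicate 1 as filled circles and replicate 2 as open squares. ABA8OX1 is the one gene with both CO2 samples far to the right, and several dehydration genes have their CO2 samples on both sides of the controls.

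The SnRK1 kinases, relatives of the SAPK kinases that respond to sugar and energy supply, showed small differences. Of 3 measured genes 0 passed in limma's test, adjusted or not (adjusted p from 0.294 to 0.968), and their log2 fold changes ran from -0.10 to 0.24. Over all 17905 genes 22.4% passed and 43.9% had an unadjusted p under 0.05, so nothing is read from a count of 0 in 3. OSK1 read 9.28 and 9.37 under CO2, against 9.07 and 9.09 in controls. OSK24 read 10.41 and 10.54 under CO2, against 10.47 and 10.67 in controls, on a set that may cross-hybridise.

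Marker genes of leaf and of other cells were read against the 22.4% of all genes that passed (8.93% higher and 13.5% lower). Of 11 measured genes on the leaf list 1 rose and 3 fell, and the summed log2 signal of the list was 110.9 to 112.7 under CO2, against 115.2 to 116.2 in controls. PSB28 rose (1.06), and an FNR gene on chromosome 7 (-1.35), RCABP89 (-1.33) and PSAH (-0.84) fell. The name of that FNR gene does not mark it as a leaf form, so the list may hold genes not particular to leaves. Of 19 genes of dividing cells 0 rose and 2 fell (70.0 to 75.9 under CO2, against 69.2 to 76.0 in controls). Of 4 genes of root 1 rose and 1 fell (13.4 to 13.7 under CO2, against 14.9 to 15.4 in controls). The root genes did not move together, with log2 fold changes of -2.47 for IRT1, -0.42 for WOX5, 0.40 for SHR1 and 0.89 for SCR1. The part of these differences in the SAPK results was not tested.

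Among 2436 other genes with a name, likeness to each SAPK gene past the threshold was measured as the distance between log2 profiles over the 4 samples, each centred on its own mean. Nearest to SAPK6 were OsC3H28, of the CCCH zinc finger family (distance 0.033), D2HGDH, named for D-2-hydroxyglutarate dehydrogenase (0.093), and NH4 (0.119). Their log2 fold changes were 0.79, 0.74 and 0.77, and NH4 did not pass (adjusted p = 0.0583, limma). Nearest to SAPK9 were BURP2, of the BURP domain family (0.234), UPD1, also named URO-D1 (0.249), and MRL7 (0.266). Their log2 fold changes were -2.61, -2.34 and -2.51. MRL7 is on a set that may cross-hybridise and read 3.37 and 3.86 under CO2, below 3.90, the median of the probe set means. These genes were chosen for profiles like those of SAPK6 or SAPK9. Close fold changes follow from that choice, and a link between the genes was not tested.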

How the data were processed

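Each sample has 1 deposited column of log2 signals, 1 per probe set. The authors used RMA and limma, per the submitters' processing notes, which give no versions. They were used without rescaling. Gene names came from the array annotation and a table of rice genes (assembly ASM3414082v1, names only). The annotation gives 1 gene for 22436 of the 57194 probe sets, several genes for 95 (left unnamed) and none used here for 34663. Where a gene has several probe sets, the brightest on average stands for it.

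The test was limma 3.58.1 (R 4.3.3) on every probe set without filter or block, two-sided, with 2 residual degrees of freedom and 2.85 from the prior. The p-values of all probe sets were adjusted by the Benjamini-Hochberg method, and 0.05 was the threshold. The procedure was tested on simulated data. Replicates are biological per the series design. Over all probe sets, replicate 1 minus replicate 2 in the CO2 group correlated with the same difference in controls at r = -0.10. The numbers were therefore not taken to pair the samples.

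The members and lists were chosen with earlier results of these data known. Lists were patterns on symbols and synonyms. Matches to SK numbers, which name other kinases, and OSK1 as a name of SKP1 were dropped, and a gene counted in 1 list. Named genes were every SAPK gene, up to 4 past the threshold per list (or the 2 with the smallest p), and the 3 nearest named profiles per called SAPK gene. Figures used matplotlib 3.10.9 in Python 3.11.15. The alternatives were quantile normalization, a filter at the median level, a replicate block, an intensity trend, leaving out each sample, the mean of probe sets, leaving out sets that can bind several transcripts, and adjustment over genes.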

Additional observations from a re-analysis of the deposited data

How the results depend on the processing

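The crossed replicate block was added after seeing the data, because the differences between replicates 1 and 2 correlated at -0.10 between the groups. The count of called probe sets was 6583, but 1691 with the replicate block and 3478 with the crossed replicate block. Without each sample in turn it ran from 0 to 2477, and was 0 without CO2 replicate 1, control replicate 1 or control replicate 2 (limma; 11506, 9691 and 9246 at an unadjusted p under 0.05). Both blocks left 1 of 10 SAPK probe sets called, with 0 higher and 1 lower, since SAPK6 did not pass (limma adjusted p = 0.0938 with the replicate block and 0.0639 with the crossed one; 4 and 5 SAPK genes higher at an unadjusted p under 0.05). SAPK9 passed with both (0.0432 and 0.0324). Leaving out single samples gave 0 to 1 SAPK probe sets called, 0 to 0 higher and 0 to 1 lower, and 0 to 0 pathway genes higher (limma; at an unadjusted p under 0.05, 1 to 5 SAPK genes higher and 1 to 2 lower in the fits with 0 called). The lone sample of such a fit is assumed to vary like the other group. SAPK genes higher numbered 2 with the dimmer probe sets left out and with the mean of probe sets, where SAPK2 passed (adjusted p = 0.0437 in both), and 3 adjusted over genes. Without sets that can bind several transcripts 0 SAPK genes were lower, as the only set of SAPK9 is left out (limma; 2 at an unadjusted p under 0.05). Without CO2 replicate 2 the log2 fold change of SAPK3 was -0.11, and leaving out each sample gave -0.11 to 0.20. For OSK24 the range was -0.20 to 0.0028, where the highest is that without control replicate 2. Quantile normalization and the intensity trend kept the counts of SAPK genes at 1 higher and 1 lower.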
